A study of Drosophila melanogaster with 24 samples.

Results

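The 8 genes described here make or modify long fatty acyl chains in Drosophila melanogaster. They are 3 desaturases (Desat1, CG9743 and CG9747), 3 elongases (eloF, bond and CG9458) and 2 fatty acyl-CoA reductases (CG5065 and CG8303), out of 16727 genes in the count tables. Of these, 7 were named in a list and Desat1 was added to it, and each was found by its row name in both tables. They were chosen by their counts in these same libraries, with earlier results known, and which comparison led to the choice was not recorded. The differences of the 8 genes between diets, sexes and tissues are therefore given as descriptions. Nothing is read from their test results, and tests are kept for the other genes of the families.

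The study asked how a high-fat diet changes gene expression in each sex. Adult w1118 flies, given as 5 to 7 days old by the labels and as younger at the start of the diet by the methods, were kept for 7 days on a high-fat diet (HFD, the regular diet with 20% coconut oil) or on a regular diet (RD). Heads and headless bodies were then sequenced, giving 8 groups of 3 libraries: male heads on HFD and on RD, female heads on HFD and on RD, male bodies on HFD and on RD, and female bodies on HFD and on RD. Every library was a pool, of 100 heads or of 10 bodies by the labels (15 bodies by the methods), heads were sieved with their antennae, and all flies carried the white-eyed w1118 background. Replicates are called by their label numbers, which are 2, 3 and 4 except in RD males, where they are 1, 2 and 3. Nothing states that replicates were separate cultures, so p-values measure the spread between these libraries only.

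A desaturase puts a double bond into a fatty acyl chain, an elongase carries out the condensing step that lengthens the chain, and a fatty acyl-CoA reductase turns the finished chain towards an alcohol or aldehyde. In insects these steps serve membranes, storage fat, waxes and the hydrocarbons of the cuticle. In the fly, hydrocarbons are made largely in the oenocytes, cells under the abdominal cuticle, and some of them act as sex pheromones. Desat1 makes the unsaturated chains from which many of these pheromones derive. The elongase eloF is needed for the long dienes that mark females, and bond is needed for a male pheromone of the ejaculatory bulb and for male fertility. CG9743 and CG9747 are placed with the desaturases, CG9458 with the elongases, and CG5065 and CG8303 with the reductases by their sequence families.

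By the Ensembl annotation of BDGP6, 6 of the 8 genes lie on chromosome arm 3R and both reductases lie on 2R. The gene eloF (FBgn0037762, 3R:9814161-9815158, plus strand) and CG9458 (FBgn0037765, 3R:9818914-9819877, minus strand) belong to a run of 5 elongase genes within 7.13 kb, in the order CG8534, eloF, CG16904, CG9459, CG9458. CG9747 (FBgn0039754, 3R:30185423-30191252) and CG9743 (FBgn0039756, 3R:30196360-30202998) stand on the minus strand on either side of another desaturase, CG15531, in a stretch of 17.6 kb. The reductases CG8303 (FBgn0034143, 2R:16595028-16604373, minus strand) and CG5065 (FBgn0034145, 2R:16607654-16624894, plus strand) follow the reductase CG8306 in a stretch of 35.4 kb. The elongase bond (FBgn0260942, 3R:22550680-22556494, plus strand) lies 1.85 kb from the elongase CG5278, and Desat1 (FBgn0086687, 3R:12439600-12447616, plus strand) lies 1.74 kb from Desat2. For 7 of the 8 genes the next annotated gene on 1 side is thus of the same family, which matters for the counts because related neighbours can share reads. How the counting treated reads that fit several genes or overlap a gene on the other strand is not given in the sources used here. The bond locus overlaps the antisense gene asRNA:CR44062 and CG8303 overlaps CG5089 on the other strand, so reads of these pairs may have been mixed.

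The libraries held between 13373820 and 25703778 counts. Levels are given as CPM (counts as a share of the library, scaled by TMM over the 24 libraries), and as TPM (the same idea per gene length) where different genes are compared. Whether libraries of 2 groups overlapped was read on 3 scalings, TMM, total counts and TPM. The labelled tissues were checked against marker genes fixed with the lists. Summed photoreceptor markers (9 genes) were at 43500 to 74400 CPM in heads, and in bodies they were at 98.7 to 499.9 CPM in 11 libraries and at 2764 CPM in male body RD 3. Midgut markers (7 genes) were at 6311 CPM in male body HFD 2 and at 627.6 to 3048 CPM in the other male bodies. Oenocyte markers (3 genes, among them Cyp4g1) were at 18290 to 36040 CPM in male bodies, at 4846 to 8389 CPM in female bodies and at 10.88 to 44.03 CPM in heads. Among male heads, HFD 3 had the lowest TMM factor (0.834, against 1.03 to 1.09 in the others) and, with HFD 2, the lowest mean correlation with its own group (0.955 and 0.956). In such bulk samples, fewer cells of a type and less RNA per cell cannot be told apart.

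**Figure D1:**
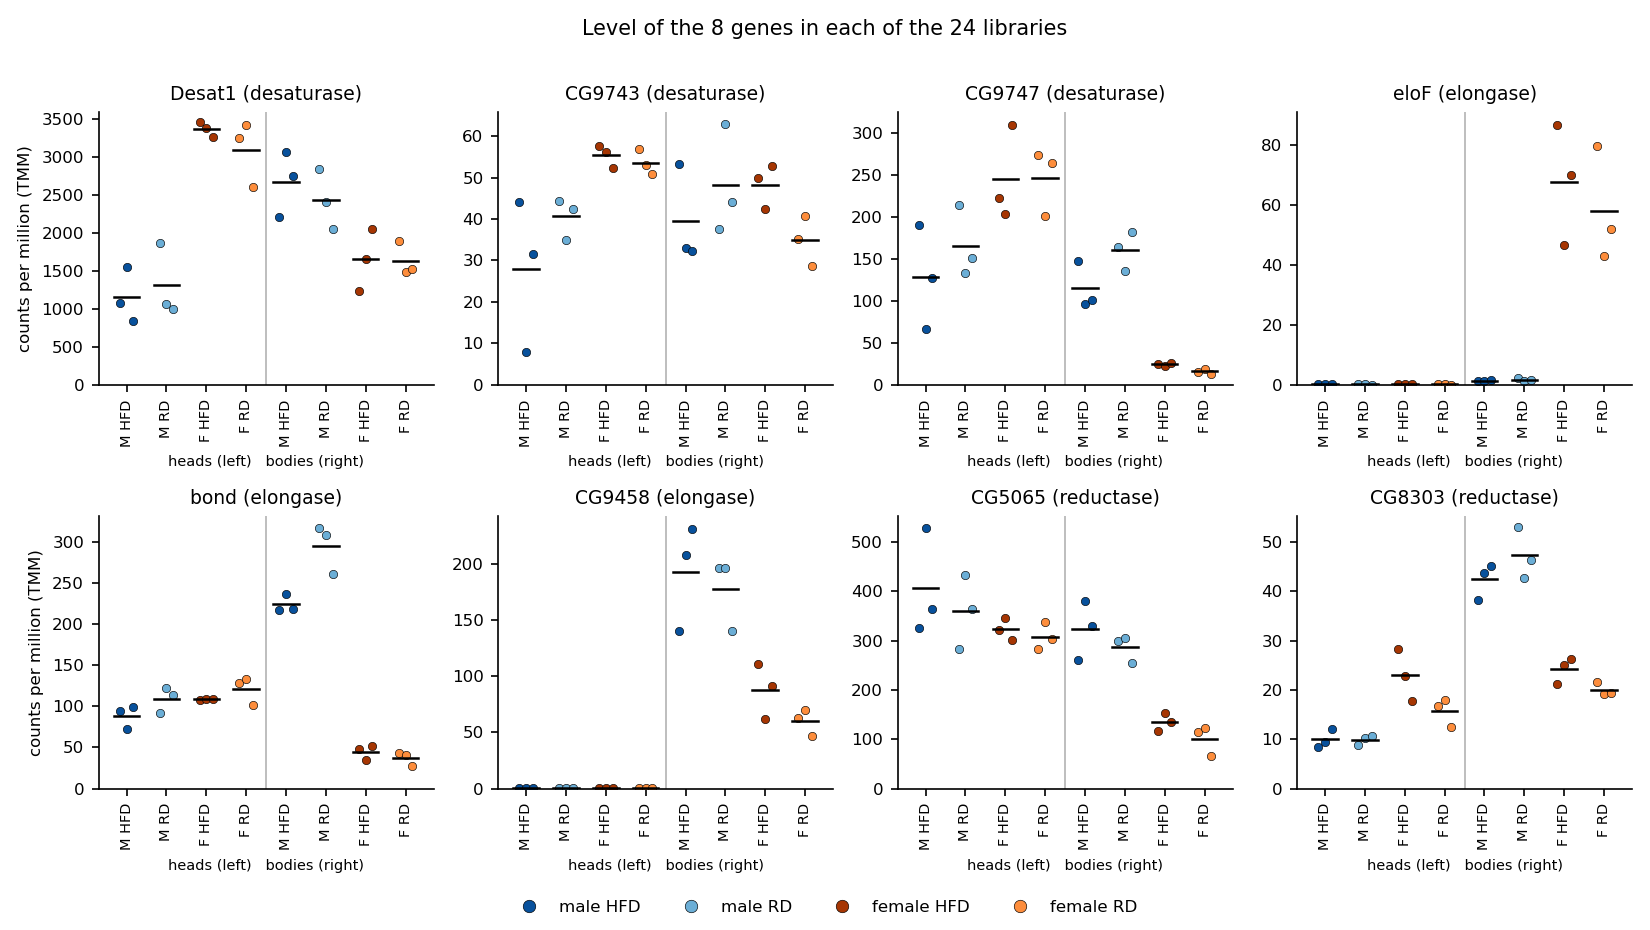
Level of each of the 8 genes in every library, in TMM-scaled CPM on a linear axis from 0, with heads left and bodies right, males (M) and females (F), HFD and RD. Points are libraries and bars are group means (n = 3), and the axis of each panel has its own range. Female heads stand highest for Desat1, eloF is far higher in female bodies than in any other group, and male bodies stand highest for bond.

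Per gene length, Desat1 was the most abundant of the 8 genes in all 8 groups, and its libraries lay apart from those of the next gene in each. Its mean ran from 1073 ± 268 TPM in male heads on HFD to 2948 ± 146 TPM in female heads on HFD (SD, n = 3). In bodies CG9458 came second, with 272 ± 48.3 TPM in HFD males and 189 ± 47.7 TPM in HFD females. In heads CG5065, CG9747 and bond followed Desat1 at 109 to 231 TPM, then CG9743 at 38.1 to 69.8 TPM and CG8303 at 10.4 to 22.0 TPM, while eloF and CG9458 came last with under 1 TPM. Several neighbours in this order overlapped. CG5065 and CG9747 overlapped in male heads, bond and CG5065 in female heads, CG9743 and CG8303 in male bodies, and CG9458 and eloF in female bodies, each on both diets. The lowest gene was eloF in male bodies (1.778 ± 0.1004 TPM on HFD and 2.39 ± 0.815 TPM on RD) and CG9747 in female bodies (20.36 ± 1.445 TPM on HFD and 13.04 ± 2.731 TPM on RD), where CG9747 overlapped with CG8303 on HFD.

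Among the desaturases, Desat1 was lower in male than in female heads on both diets. On RD it had 1863, 1058 and 995 CPM in male heads, against 3248, 3411 and 2601 CPM in female heads, a log2 difference of -1.23 ± 0.27 (SE). On HFD it had 1069, 1543 and 841 CPM in male heads, against 3451, 3372 and 3256 CPM in female heads, a log2 difference of -1.49 ± 0.30. No male head library reached the lowest female head library, and without male head HFD 3 the second difference was -1.81.

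In bodies Desat1 was closer between the sexes. It had 2199, 3063 and 2745 CPM in HFD males, against 1236, 1656 and 2046 CPM in HFD females, and 2837, 2402 and 2046 CPM in RD males, against 1892, 1475 and 1518 CPM in RD females. The log2 differences were 0.49 ± 0.25 on HFD and 0.47 ± 0.16 on RD, and the sexes did not overlap on the TMM scale. On total counts and on TPM they overlapped on both diets, and the ratio of mean TPM was 1.06 on HFD and 1.07 on RD. The direction of the body difference therefore held under each scaling but its size did not. Between tissues, Desat1 was higher in female heads than in female bodies (log2 difference 1.07 ± 0.18 on HFD and 0.97 ± 0.14 on RD) and lower in male heads than in male bodies on the TMM scale (-0.72 ± 0.36 on HFD and -0.76 ± 0.28 on RD). The ratios of mean CPM for these male groups were 0.431 on HFD and 0.538 on RD, since the fit and the CPM use different TMM factors. On TPM the male heads and male bodies overlapped, with ratios of 0.785 on HFD and 0.908 on RD, and on RD they overlapped on total counts too.

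CG9747 showed the widest tissue difference of the 3 desaturases, in females. In female heads it had 222, 203 and 310 CPM on HFD and 273, 201 and 264 CPM on RD. In female bodies it had 24.5, 22.3 and 26.2 CPM on HFD and 15.4, 19.1 and 12.5 CPM on RD. Female heads thus stood above female bodies by a log2 difference of 3.37 ± 0.17 on HFD and 4.02 ± 0.20 on RD. In males the tissues overlapped on the TMM scale: male heads had 190, 66.4 and 127 CPM on HFD, against 148, 96.2 and 101 CPM in male bodies, and 214, 133 and 151 CPM on RD, against 164, 135 and 182 CPM in male bodies. On TPM the RD male heads lay above the RD male bodies, with a ratio of 1.76. Male bodies were above female bodies, by 2.05 ± 0.23 on HFD and 3.25 ± 0.17 on RD (log2), with no overlap under any of the 3 scalings. In heads CG9747 went the other way on HFD (-0.89 ± 0.38, male below female with no overlap, and -0.62 without male head HFD 3) and overlapped on RD (-0.56 ± 0.21).

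The group means of CG9743 lay between 27.8 and 55.4 CPM, the narrowest span of the 8 genes as a ratio, but single libraries spread more widely: the lowest library was male head HFD 3 with 7.85 CPM, against 44.1 and 31.5 CPM in the other male heads on HFD. Male heads were below female heads without overlap on both diets, by -0.95 ± 0.54 on HFD and -0.39 ± 0.12 on RD (log2). Without male head HFD 3 the HFD difference was -0.55. In bodies the sexes overlapped on the TMM scale, with log2 differences of -0.47 ± 0.26 on HFD and 0.38 ± 0.22 on RD, while on TPM the HFD males fell below the HFD females with a ratio of 0.551.

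The elongase eloF was close to absent from heads and from male bodies and was abundant in female bodies. In heads it had 0 to 4 counts per library, or 7, 4, 9 and 4 counts summed over male HFD, male RD, female HFD and female RD. In bodies it had 29, 14 and 16 counts in HFD males (1.24, 1.27 and 1.38 CPM), against 1792, 1011 and 1585 counts in HFD females (86.4, 46.5 and 69.8 CPM). On RD it had 40, 16 and 29 counts in male bodies (2.30, 1.05 and 1.52 CPM), against 1791, 919 and 1066 counts in female bodies (79.4, 42.8 and 51.7 CPM). The highest male body library was below 3 CPM and the lowest female one above 42 CPM. As fitted log2 differences, male minus female, these were -5.90 ± 0.30 on HFD and -5.25 ± 0.31 on RD. Set as a ratio of summed counts per total counts, eloF was 65.6 times higher in female than in male bodies on HFD (95% exact interval 50.8 to 86.3) and 42.6 times on RD (34.3 to 53.4). Female bodies were above female heads by 475 times on HFD (250 to 1040) and 870 times on RD (339 to 3190), and male bodies above male heads by 7.75 times on HFD (3.54 to 20.1) and 18.4 times on RD (6.92 to 69.0). These intervals cover counting error only.

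Ovary and eggshell markers (6 genes) were also higher in female than in male bodies, but by far less than eloF. They summed to 526.7 to 653.8 CPM in male bodies on HFD and 1845 to 2510 CPM in female bodies on HFD. Oenocyte markers went the other way between the sexes (above). The part of either in the eloF difference was not tested.

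The elongase CG9458 was also close to absent from heads but abundant in the bodies of both sexes. Its head libraries held 1 to 8 counts each. In bodies it had 140, 207 and 230 CPM in HFD males, against 111, 62.0 and 91.1 CPM in HFD females, and 196, 196 and 140 CPM in RD males, against 62.5, 70.2 and 46.7 CPM in RD females. Male bodies were above female bodies without overlap on the TMM scale, by 0.92 ± 0.25 on HFD and 1.47 ± 0.19 on RD (log2), and on TPM the sexes overlapped on HFD with a ratio of 1.44. The ratio of summed counts between bodies and heads was 759 in HFD males (413 to 1580), 489 in RD males (301 to 857), 1390 in HFD females (543 to 5110) and 298 in RD females (170 to 577), again with counting error only.

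The 5 neighbouring elongases did not share 1 pattern in bodies. CG16904 was the most abundant, with a mean of 1250 TPM in HFD males, 1423 TPM in RD males, 521 TPM in HFD females and 431 TPM in RD females. CG9459 followed the same order of the sexes at 127 and 112 TPM in males on HFD and RD, against 63.8 and 50.7 TPM in females on HFD and RD. CG9458 lay with these 2 genes, higher in males. Between CG8534, which stayed at or below 1.03 TPM on average in every body group, and CG16904 lay eloF, the only gene of the 5 with female body means above 100 TPM and male body means below 3 TPM. In male against female bodies on RD, CG16904 (log2 difference 2.10, edgeR adjusted p = 6.49e-06) and CG9459 (1.52, adjusted p = 0.000335) passed the test, both higher in males.

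**Figure D2:**
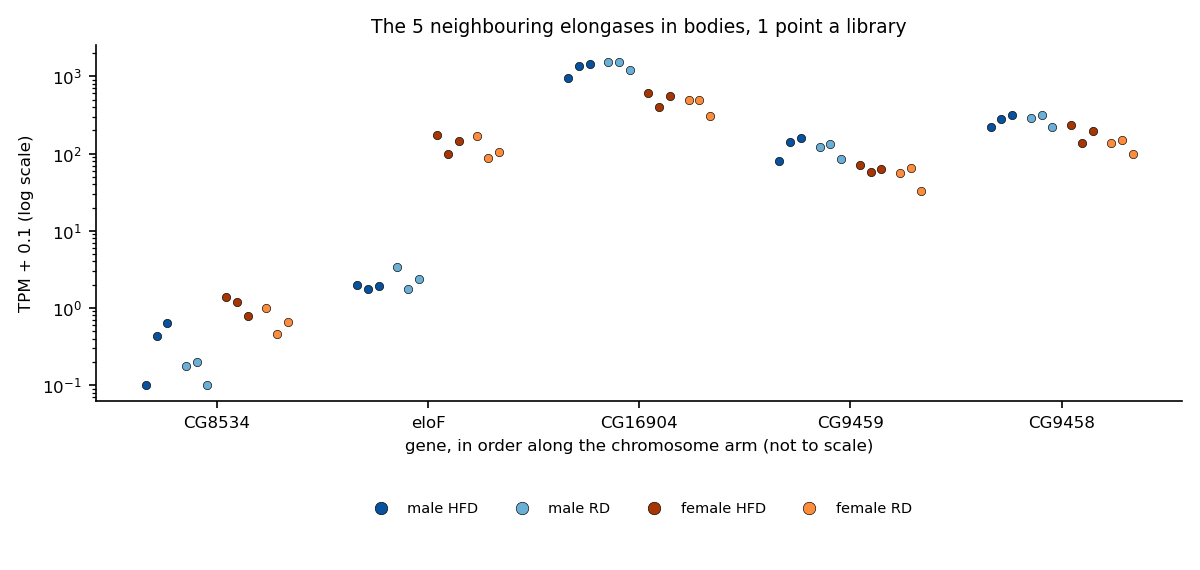
Level of the 5 neighbouring elongases in body libraries, as TPM + 0.1 on a log axis, in their order along the chromosome arm (not to scale). Each point is a library, coloured by sex and diet, and eloF has its female libraries far above its male ones (means of 139.8 and 120.4 TPM in females on HFD and RD, 1.778 and 2.393 TPM in males), whereas CG16904, CG9459 and CG9458 have higher male means.

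The elongase bond was highest in male bodies. It had 218, 237 and 218 CPM in male bodies on HFD, against 48.4, 34.8 and 51.4 CPM in female bodies on HFD. On RD it had 317, 309 and 262 CPM in male bodies, against 43.3, 40.4 and 27.4 CPM in female bodies. Every male body was above every female body under all 3 scalings, with log2 differences of 2.12 ± 0.18 on HFD and 2.90 ± 0.18 on RD. In heads the sexes were close, at 94.2, 72.0 and 99.5 CPM in HFD males, against 108, 109 and 109 CPM in HFD females, and 91.4, 122 and 114 CPM in RD males, against 128, 133 and 102 CPM in RD females. The log2 differences in heads were -0.24 ± 0.17 on HFD and -0.14 ± 0.15 on RD. Relative to bodies, bond was lower in male heads (-0.85 ± 0.24 on HFD and -1.31 ± 0.16 on RD) and higher in female heads (1.31 ± 0.14 on HFD and 1.75 ± 0.19 on RD). The ratios of mean CPM in males, heads over bodies, were 0.395 on HFD and 0.368 on RD, closer between diets than the fitted values. Ejaculatory bulb and duct markers (3 genes) moved with bond in bodies, at 8776 to 16240 CPM in male bodies and at most 0.279 CPM in female bodies, but were at 0.837 to 16.3 CPM in heads, where bond had about 100 CPM. Testis markers (8 genes) were at 3351 to 4773 CPM in male bodies and 1.60 to 2.43 CPM in female bodies. Their part in the bond difference was not tested.

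Of the reductases, CG5065 was lowest in female bodies. It had 261, 381 and 330 CPM in male bodies on HFD, against 118, 154 and 136 CPM in female bodies on HFD. On RD it had 299, 306 and 254 CPM in male bodies, against 114.9, 122 and 66.6 CPM in female bodies. The sexes did not overlap in bodies, with log2 differences of 1.04 ± 0.17 on HFD and 1.41 ± 0.21 on RD. In heads its libraries lay between 283 and 529 CPM and the sexes overlapped on both diets. Female heads were above female bodies by 1.29 ± 0.12 on HFD and 1.65 ± 0.23 on RD, while male heads and bodies overlapped on the TMM scale (0.81 ± 0.32 on HFD and 0.46 ± 0.19 on RD) and lay apart, heads above, on total counts and on TPM. The ratios of mean CPM in males, heads over bodies, were 1.25 on HFD and 1.26 on RD, closer between diets than the fitted values.

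CG8303 was the lowest of the desaturase and reductase genes in heads and had its highest level in male bodies. In bodies it had 38.3, 43.7 and 45.2 CPM in HFD males, against 21.2, 25.0 and 26.2 CPM in HFD females, and 53.0, 42.6 and 46.4 CPM in RD males, against 21.6, 19.1 and 19.5 CPM in RD females. In heads the order of the sexes was the opposite: it had 8.51, 9.47 and 12.0 CPM in HFD males, against 28.4, 22.8 and 17.8 CPM in HFD females, and 8.77, 10.2 and 10.6 CPM in RD males, against 16.7, 17.9 and 12.6 CPM in RD females. The sexes were apart in all 4 comparisons under all 3 scalings. The log2 differences, male minus female, were 0.60 ± 0.15 on HFD and 1.13 ± 0.11 on RD in bodies and -1.15 ± 0.26 on HFD and -0.66 ± 0.17 on RD in heads. Male heads were below male bodies by -1.60 ± 0.26 on HFD and -2.13 ± 0.15 on RD, and female heads differed from female bodies by -0.03 ± 0.18 on HFD, where the tissues overlapped, and by -0.30 ± 0.14 on RD. In males the ratios of mean CPM, heads over bodies, were 0.236 on HFD and 0.208 on RD, closer between diets than the fitted values.

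**Figure D3:**
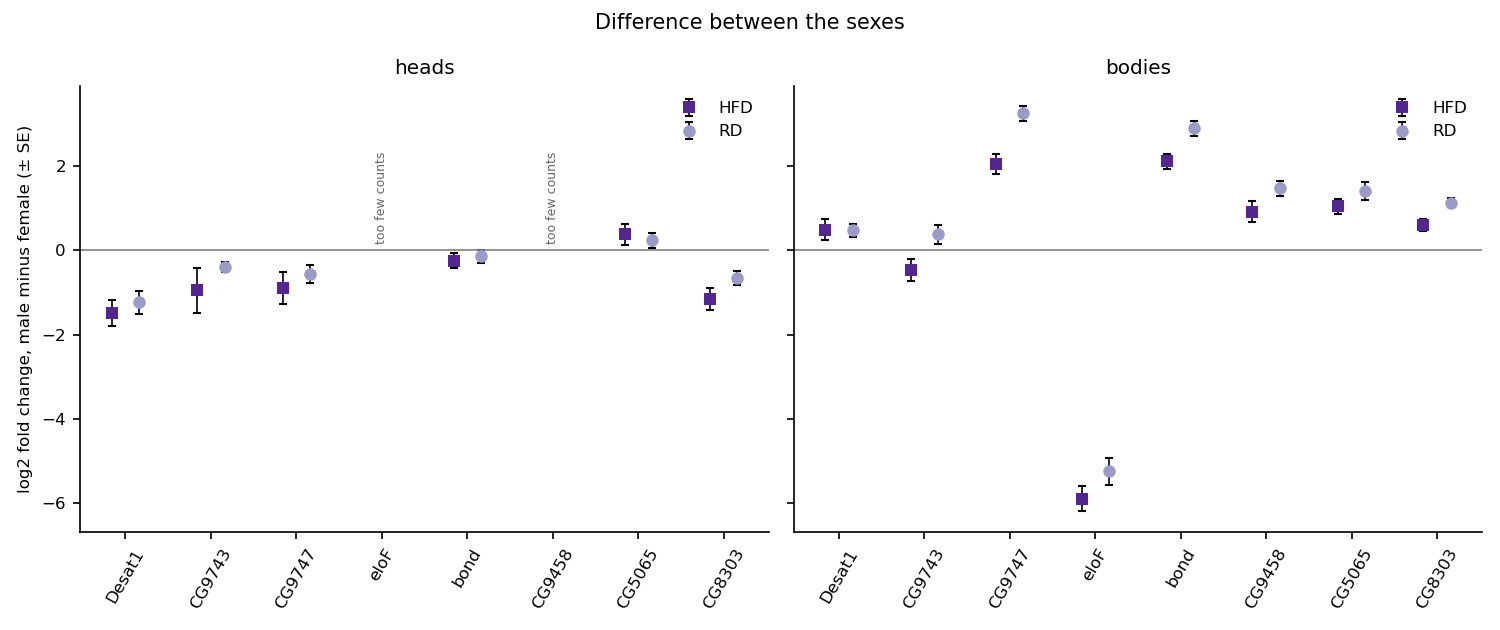
Log2 fold change between the sexes, male minus female, with its SE, for the 8 genes in heads (left) and bodies (right) on HFD (squares) and RD (circles). In bodies eloF stands alone near -5.90 and -5.25 while CG9747 and bond reach 2.05 to 3.25, and in heads most genes lie below 0. In heads eloF and CG9458 had too few counts to be fitted.

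On the TMM scale, 7 of the 8 genes had body libraries of the sexes that did not overlap on HFD and 7 on RD, and on total counts and on TPM it was 6 on each diet. Over all genes tested in bodies, 79.8% did not overlap on HFD and 86.6% on RD (TMM), so nothing is read from the count. Most genes also passed the test: by edgeR's quasi-likelihood test, 75.6% of the genes tested passed an adjusted p of 0.05 between male and female bodies on HFD and 84.4% on RD. Male minus female, 43.1% were higher and 32.4% lower on HFD, and 49.3% were higher and 35.1% lower on RD. The median over all genes was itself above 0, at 0.23 on HFD and 0.40 on RD (log2), and total counts in place of TMM moved it by -0.14 and -0.16. In heads 5 of the 6 genes tested did not overlap between the sexes on HFD (4 on TPM) and 3 of 6 on RD, where 38.1% of all genes tested did not overlap on HFD and 35.5% on RD (TMM). By the adjusted p, 0 of the 6 genes were called in heads on HFD (2 at an unadjusted p under 0.05, and 2 called by DESeq2) and 1 of 6, Desat1, on RD. Of all genes 1.78% were called on HFD (0.447% higher and 1.33% lower in males) and 7.76% on RD. As the 8 genes were chosen with such results known, nothing is read from their counts in heads, called or not overlapping. Leaving out 1 library moved the 183 genes called in heads on HFD to between 0 and 4338 and the 788 called on RD to between 56 and 5093, the highest without male head HFD 2 and without male head RD 1.

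The 36 other listed desaturase, elongase and reductase genes were tested alongside. They were taken by family name, in lists drawn up with earlier results of these data known. In bodies 32 of them were tested on each diet. On HFD 27 rose and 3 fell in male relative to female bodies, with a median of 1.17, and on RD again 27 rose and 3 fell, with a median of 1.56 (log2). The share that was higher in males was above the 43.1% and 49.3% of all genes. Oenocyte markers (above) and accessory gland markers (9 genes) moved with this, the second at 4368 to 7954 CPM in male bodies and at most 0.748 CPM in female bodies, and their part was not tested. Among the other elongases 16 of 16 rose in males on HFD and 15 of 16 on RD, and among the other reductases 9 of 11 rose and 1 fell on HFD and 10 of 11 rose and 1 fell on RD. The other desaturases were split, with 2 higher and 2 lower in males among 5 on both diets. The call counts were 25 to 28 higher on HFD, and 27 higher on RD, under RLE, total counts, DESeq2 and limma-voom, with 3 lower in each.

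The 3 largest differences among the other genes in bodies belonged to the same genes on both diets. Fad2, the desaturase that makes dienes in females, had 13 counts in HFD male bodies, against 23394 counts in HFD female bodies, a female to male ratio of 1590 (928 to 2980, counting error only). On RD it had 1 count in male bodies, against 18234 counts in female bodies, a ratio of 17500 with a wide interval of 3140 to 690000. CG31141, placed with the elongases, had 4902 counts in HFD male bodies, against 2 counts in HFD female bodies, and 5351 counts in RD male bodies, against 1 count in RD female bodies, ratios of 2780 (769 to 23000) on HFD and 5580 (1000 to 221000) on RD. Elo68alpha, an elongase of the ejaculatory bulb, had a male to female ratio of 348 (207 to 637) on HFD and 874 (460 to 1910) on RD. All 3 passed the test on both diets, with edgeR adjusted p of at most 2.33e-06. Fad2 and eloF, both known from female dienes, were each far higher in female than in male bodies. Most other elongases were higher in males, whereas the other desaturases were split.

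In heads fewer genes of the families passed. On RD, 3 rose and 5 fell of 22 other family genes tested in male relative to female heads, against 3.41% and 4.35% of all genes. The largest among them were CG16904 (log2 2.04 ± 0.39, edgeR adjusted p = 0.0334) and the reductase CG4020 (-1.94 ± 0.27, adjusted p = 0.0140). CG16904 had few counts in heads on RD, 74 in males and 19 in females, against 51548 and 14227 counts in RD bodies. Its head to body ratio was 0.00166 in RD males and 0.00145 in RD females, and RD male bodies had 3.78 times the level of RD female bodies. The part of this body difference in the head difference was not tested. With Desat1, which was among the 8 chosen genes, 9 of the 44 family genes were called in heads on RD. The number was 17 without male head RD 1, 1 without male head RD 2 or female head RD 4, and 0 without male head RD 3, female head RD 2 or female head RD 3. CG16904 was still called with 1 of the 6 libraries left out (adjusted p from 0.00257 to 0.15) and CG4020 with 2 of the 6 (0.00179 to 0.0721). On HFD none of the 23 other family genes tested in heads passed by edgeR, with 12 at an unadjusted p under 0.05 (25.3% of all genes were), and 8 passed by DESeq2 and 2 by limma-voom. Without male head HFD 2 the count of called family genes on HFD was 15 in place of 0, and without male head HFD 3 it was 3.

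Among the partner genes that supply or use the chains, Cyp4g1, the oenocyte enzyme that turns aldehydes into hydrocarbons, was higher in male than in female heads on HFD (log2 2.12 ± 0.29, adjusted p = 0.0266) and on RD (1.90 ± 0.21, adjusted p = 0.00802). On HFD the acyl-CoA synthetase gene bgm (-2.16 ± 0.38, adjusted p = 0.0490) and the fatty acid synthase gene CG3523 (-1.92 ± 0.26, adjusted p = 0.0259) were lower in male heads. These HFD calls depended on single libraries. Without male head HFD 4 or any one of the female head HFD libraries none of the 3 genes passed (adjusted p from 0.107 to 0.220), and without male head HFD 3 bgm did not pass (0.0662). On RD Cyp4g1 failed only without female head RD 3 (0.0520). Head levels of Cyp4g1 were a small fraction of body levels in each sex, with 1363 counts in male heads on HFD, against 1166929 counts in male bodies on HFD, and 420 counts in female heads on HFD, against 476500 counts in female bodies on HFD. The head to body ratio of summed Cyp4g1 counts was 0.00127 in males and 0.000905 in females on HFD. On RD it was 0.00136 in males and 0.00128 in females. Male bodies had 2.78 times the Cyp4g1 level of female bodies on HFD and 3.56 times on RD. The part of this body difference in the head difference was not tested. Ejaculatory bulb and duct markers were also higher in male heads, at 8.65 to 16.3 CPM, against 0.837 to 2.64 CPM in female heads. Their part in the Cyp4g1 difference was not tested. Over the 15 partners tested in bodies, 5 rose and 2 fell in males on HFD, against 43.1% and 32.4% of all genes, and 11 rose and 2 fell on RD, against 49.3% and 35.1%. Fat body markers (3 genes) summed to 1522 to 3030 CPM in male heads on HFD, against 3633 to 4793 CPM in female heads on HFD, and their part in the head differences was not tested.

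**Figure D4:**
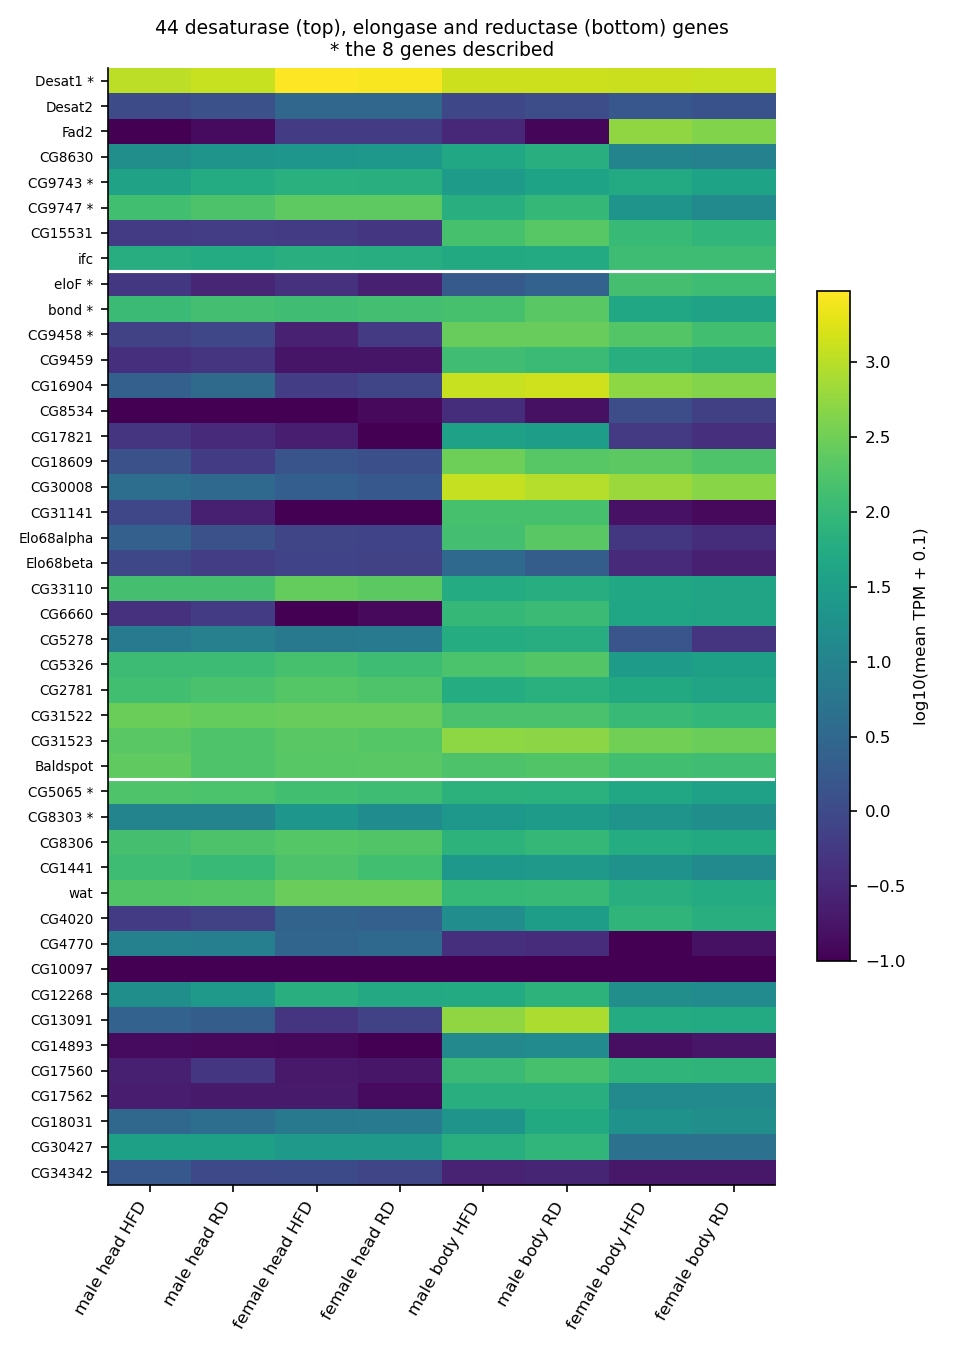
Mean level of the 44 desaturase, elongase and reductase genes (rows, with asterisks on the 8 described) in the 8 groups (columns), coloured by log10 of mean TPM + 0.1. Desat1 is bright in every column, several elongases and reductases, among them CG9458 and CG17562, are dark in all head columns and brighter in bodies, and Fad2 and eloF are bright only in female bodies.

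Between tissues, the other family genes fell mostly in heads of males and were split in females. In males 4 rose and 22 fell of 31 tested in heads relative to bodies on HFD, with a median log2 difference of -3.02, and 4 rose and 24 fell of 32 on RD, with a median of -3.00. Of all genes 29.3% rose and 34% fell on HFD and 30.7% rose and 42.8% fell on RD. On total counts the HFD split was 2 higher and 22 lower, and the median of all genes moved by -0.295. In females 13 rose and 14 fell of 28 on HFD and 14 rose and 14 fell of 28 on RD, against 40.6% higher and 44.7% lower of all genes on HFD and 41.3% higher and 45.5% lower on RD. The largest differences were genes nearly silent in heads. CG6660, placed with the elongases, had 0 counts in female heads on HFD, against 1676 counts in female bodies on HFD, which makes it at least 544-fold lower in heads with the floor of 3 counts over the group (442-fold by the 95% exact limit). The reductase CG17560 averaged 0.104 CPM in male heads on HFD, against 149.7 CPM in male bodies on HFD (log2 -9.91 ± 0.44, adjusted p = 3.94e-05), and the reductase CG17562 averaged 0.0735 CPM in male heads on RD, against 77.2 CPM in male bodies on RD (-9.75 ± 0.28, adjusted p = 1.23e-07). On the head side stood the reductase CG4770, chosen after its values were seen, with 6.06 CPM in male heads on HFD, against 0.370 CPM in male bodies on HFD. On the TMM scale, heads and bodies did not overlap for 5 of the 8 genes in males on HFD, where 69.3% of all genes did not overlap and 63.3% were called, and for 5 in males on RD (77.6% and 73.5%). In females it was 6 on HFD (86.6% and 85.3%) and 8 on RD (88.4% and 86.9%). On total counts or on TPM these counts were 5 or 6 in males and 6 to 8 in females, and nothing is read from them.

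The diet differences of the 8 genes were small. By edgeR no gene of the 8 was called between HFD and RD in any of the 4 comparisons, where 0.00983% of all genes (1 of 10175) were called in female heads and 0% in each of the other 3. DESeq2 and limma-voom called none of the 8 either. At an unadjusted p under 0.05 there were 0 of 6 in male heads (background 1.42%), 1 of 6 in female heads (2.76%), 1 of 8 in male bodies (3.79%) and 4 of 8 in female bodies (3.48%), and as the list was drawn up with such results known nothing is read from these counts. The smallest adjusted p among the 8 was 0.809, 0.9999, 0.945 and 0.936 in the same order.

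In female bodies all 8 genes were higher on HFD in the fitted mean, by log2 differences of 0.06 to 0.67 with a median of 0.38. CG9747 had 24.5, 22.3 and 26.2 CPM on HFD, against 15.4, 19.1 and 12.5 CPM on RD (0.67 ± 0.17), and CG9743 had 49.9, 42.3 and 52.7 CPM on HFD, against 35.1, 40.7 and 28.6 CPM on RD (0.51 ± 0.16). For these 2 genes the diets did not overlap under any scaling. The share of all genes without overlap between diets was not counted, so nothing is read from this. CG9458 had 111, 62.0 and 91.1 CPM on HFD, against 62.5, 70.2 and 46.7 CPM on RD (0.59 ± 0.23), with overlap, and CG5065 (0.46 ± 0.24), bond (0.31 ± 0.21), CG8303 (0.31 ± 0.12), eloF (0.26 ± 0.27) and Desat1 (0.06 ± 0.20) overlapped as well. The other family genes lay on the same side: 25 of 26 tested had a positive log2 difference, with a median of 0.24, against a median of 0.00 over all genes, but none of the 26 passed the test and none had an unadjusted p under 0.05. Leaving out female body RD 4 lowered these values to 7 of 8 and 22 of 28 positive, with medians of 0.24 and 0.10. That library also had the lowest oenocyte markers (4846 CPM, against 7096 and 7360 CPM in the other RD female bodies) and the lowest midgut markers (3716 CPM) of the female bodies, whose part was not tested.

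In male bodies bond was the only gene of the 8 whose diets did not overlap on the TMM scale, with 218, 237 and 218 CPM on HFD, against 317, 309 and 262 CPM on RD (log2 -0.41 ± 0.13). On total counts and on TPM the diets of CG8303 did not overlap either, with a fitted difference of -0.17 ± 0.11. As in female bodies, the share of all genes without overlap was not counted, and nothing is read from these. CG9747 had 148, 96.2 and 101 CPM on HFD, against 164, 135 and 182 CPM on RD (-0.47 ± 0.23), and -0.76 without male body HFD 2. The other 5 genes lay between -0.33 and 0.16. Of the 31 other family genes tested in male bodies 13 were positive and 18 negative, with a median of -0.08, and 0 passed by edgeR, with 4 at an unadjusted p under 0.05. The reductase CG18031 (known as FarO) was the 1 family gene called by DESeq2, with a mean of 26.2 CPM on HFD, against 61.6 CPM on RD, and its edgeR difference was -1.23 ± 0.23 with an adjusted p of 0.865.

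In heads the diets overlapped for all 6 genes that could be fitted. In female heads CG8303 had 28.4, 22.8 and 17.8 CPM on HFD, against 16.7, 17.9 and 12.6 CPM on RD (log2 0.55 ± 0.18), and the others lay between -0.16 and 0.12. In male heads the largest was CG9743 at -0.53 ± 0.55, which was -0.09 without male head HFD 3, and CG9747 at -0.36 ± 0.39 was -0.05 without it. None of the 22 other family genes tested in male heads and of the 21 tested in female heads passed, and none had an unadjusted p under 0.05.

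**Figure D5:**
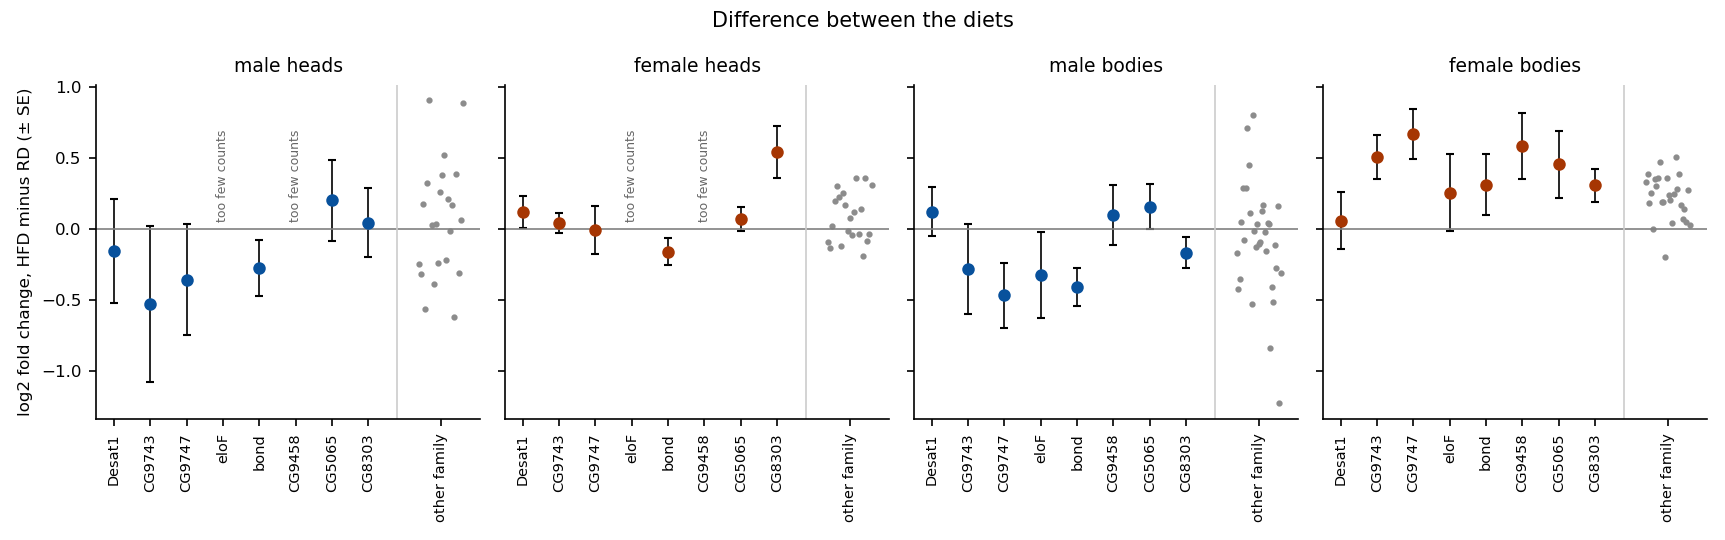
Log2 fold change between the diets, HFD minus RD, with its SE, for the 8 genes in male heads, female heads, male bodies and female bodies (left to right), and grey points are the other family genes tested, with no error drawn. In female bodies all 8 points lie above 0, at 0.06 to 0.67, and in male bodies bond and CG9747 lie lowest at -0.41 and -0.47. In heads eloF and CG9458 had too few counts to be fitted.

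Whether the diet difference itself differed between the sexes was fitted as an interaction (male minus female). In bodies 7 of the 8 genes had a negative value, led by CG9747 (-1.10 ± 0.29), CG9743 (-0.75 ± 0.37) and bond (-0.68 ± 0.26), and Desat1 was at 0.12 ± 0.29. None of the 8 and none of the 32 other family genes passed, by edgeR, DESeq2 or limma-voom, and 0% of all genes were called. At an unadjusted p under 0.05 there were 3 of 8 and 4 of 32, with 3.18% of all genes. The 8 genes were chosen with such results known, so nothing is read from their 3 of 8. In heads 5 of 6 were negative, none of the 8 or of the 24 other family genes passed by any of the 3 tools, none had an unadjusted p under 0.05 (1.24% of all genes had), and 0% of all genes were called. The interaction of tissue and diet gave no call among the 8 genes or the other family genes in either sex by any of the 3 tools. Of all genes 0% were called by edgeR and by limma-voom in either sex and by DESeq2 in males, and DESeq2 called 1 gene in females. At an unadjusted p under 0.05 it gave 0 of 8 and 2 of 33 in males (3.14% of all genes) and 2 of 8 and 1 of 29 in females (3.07%). Again nothing is read from the counts of the 8 genes.

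Over the 24 libraries, each of the 8 genes was set beside all 13820 other genes kept, by Pearson's correlation of log2(CPM + 1). This describes a likeness in which tissue and sex are shared by all points, and no p is given. For eloF the 3 closest genes were ndl (r = 0.997), otu (0.995) and piwi (0.995), all known from the ovary or germline. For CG9458 they were CG31821 (0.9985), the elongase CG30008 (0.9983) and Oatp58Db (0.9982). For bond they were CG16820 (0.983), CG34215 (0.980) and CG7342 (0.971), and for CG9747 they were sprt (0.981), Nep4 (0.980) and CG34398 (0.979). For CG5065 they were caps (0.979), CG31436 (0.972) and CG7180 (0.968), and for CG8303 they were CG30108 (0.953), CG16799 (0.953) and Syb (0.946). Desat1 was closest to CG3775 (0.936), alpha-Est2 (0.936) and CG33120 (0.915), and CG9743 to CG13360 (0.931), CG10672 (0.930) and CG17840 (0.919). By Spearman's correlation 2 of these 3 genes stayed among the closest for Desat1, 1 for CG9747, bond and CG8303, and 0 for the other 4.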

How the data were processed

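RNA of pooled heads and bodies was sequenced by the authors as 100-base paired reads on a HiSeq2500 from TruSeq Stranded mRNA libraries and aligned with TopHat at default settings. The counts that the authors deposited are whole numbers of reads per gene, not normalized, for 16727 genes in 2 tables (heads and bodies in each sex's table), and the submitters' processing notes name dm6 and featureCounts. The methods name a mouse annotation, although the gene rows are fly genes, and the strand setting and the treatment of reads with several matches are not given in the sources used here. All count columns mapped to a labelled sample (0 without one).

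The 8 genes and all lists were chosen with earlier results of these data known. The families held 8 desaturases, 20 elongases and 16 reductases (44 genes, 36 beside the 8), and 16 partner genes. CG10097 and Fatp were at 0 counts in all 24 libraries. CG10097 overlaps CG10096 on the same strand. Whether the 0 counts of CG10097 and Fatp reflect expression or the way reads were counted was not tested. Named were all 8 genes, the 3 other family or partner genes with the largest called difference in each comparison, and the 3 genes most like each of the 8. Other names were chosen after their values were seen.

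Counts were tested with edgeR 4.0.16 (quasi-likelihood, two-sided) in R 4.3.3 on the libraries compared, with filterByExpr (minimum count 10, minimum total 15), TMM and Benjamini-Hochberg adjustment over all genes tested, threshold 0.05. The SE is the log2 fold change over the square root of F. CPM use TMM factors of all 24 libraries, so ratios of CPM can differ from fitted fold changes. TPM use the tables' gene lengths. Alternatives were RLE factors, total counts, DESeq2 1.42.0, limma-voom (limma 3.58.1), filters of at least 1 count or of 10 counts in every library, a single fit of all 24 libraries, a block for the replicate number and each library left out. The ratio of mean TPM was added after seeing the data. Scripts were tested on simulated data. Figures were drawn with matplotlib 3.10.9. Totals of 13373820 to 25703778 counts set the precision, and intervals are 95% exact and cover counting error only.

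Same-numbered libraries deviated together in every pair only between heads and bodies on HFD, with correlations of 0.749, 0.617 and 0.293 in males and 0.111, 0.164 and 0.189 in females. There the replicate block gave 32 called family genes in place of 30 in males and 34 in place of 33 in females. No sequences are printed, since no genome or sequence table was used here.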

Additional observations from a re-analysis of the deposited data

Results flagged for a closer look

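Several of the 8 genes had opposite sex differences in heads and bodies, with every male library on 1 side of every female library in each tissue on the TMM scale. These differences between tissues were not tested. Of all genes, 38.1% did not overlap between the sexes in heads on HFD and 35.5% on RD, and 79.8% and 86.6% in bodies. The share with opposite directions was not counted, and the 8 genes were chosen from these libraries, so nothing is read from the pattern. The values are log2 fold changes, male minus female, heads first. For Desat1 they were -1.49 in heads and 0.49 in bodies on HFD and -1.23 in heads and 0.47 in bodies on RD, and the body libraries of the sexes overlapped on total counts and on TPM. For CG8303 they were -1.15 in heads and 0.60 in bodies on HFD and -0.66 in heads and 1.13 in bodies on RD, apart under all 3 scalings. For CG9747 on HFD they were -0.89 in heads and 2.05 in bodies. For bond on HFD they were -0.24 in heads, where the sexes overlapped on TPM, and 2.12 in bodies.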

How the results depend on the processing

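The number of the 44 family genes called stayed within 1.5 times its value in 116 of 128 settings other than leaving out a library, and in 112 of 120 with a library left out. The 44 include the 8 chosen genes. The main count was 0 in every diet and interaction comparison, and most of all genes were called between tissues and between the sexes in bodies. The pooled counts therefore say little about the sexes in heads, where most of the moves lay. In male bodies DESeq2 called 1 family gene between diets in place of 0. Between the sexes in heads on RD, 9 became 5 with at least 10 counts in every library and 15 with the replicate block, and 0 to 17 with a library left out. Between the sexes in heads on HFD, 0 became 1 with RLE factors, 1 with total counts only, 10 with DESeq2, 3 with limma-voom, 1 with at least 10 counts in every library and 20 with all 24 libraries in 1 fit, and 0 to 15 with a library left out. Between heads and bodies, at least 10 counts in every library gave 17 in place of 33 in RD males, 14 in place of 30 in HFD males and 21 in place of 35 in RD females, since that filter drops genes silent in a tissue. For the other moves the cause was not tested. No log2 difference of a called gene among the 8 reversed. Of the fitted log2 differences of the 8 genes, called or not, and the overlaps of their lists of most similar genes, 892 of 940 values were counted as unmoved (834 of 888 with a library left out, and 59 of 88 for the added ratio of mean TPM). For a log2 difference this meant a move of less than the spread between libraries. For a list it meant that at least 2 of the 3 genes stayed by Spearman's correlation, which held only for Desat1.

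Counts over all genes moved more. For HFD against RD, edgeR called 1 gene in female heads and 0 in the others. DESeq2 called 9 (male) and 17 (female) in heads and 28 (male) and 7 (female) in bodies, and the replicate block called 2 (male) and 10 (female) in heads and 16 (male) and 0 (female) in bodies. Between the sexes in heads, edgeR called 183 on HFD and 788 on RD, DESeq2 1099 and 1642, the replicate block 6 and 3832, and 1 fit of all libraries 3853 on HFD. Between male heads and bodies, at least 10 counts in every library left 4390 calls in place of 8117 on HFD and 6067 in place of 9592 on RD. The block is not a pairing in these diet and sex comparisons, where same-numbered libraries did not deviate together in every pair, and it changed no other count of family genes by over 1.5 times. Male diet groups and RD sex groups share only the numbers 2 and 3. Total counts in place of TMM moved the median of all genes by -0.14 in male heads between diets and by -0.13 in heads on HFD between sexes. In heads eloF and CG9458 had at most 8 counts a library, which limits them to ratios with wide intervals.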
